A study of Mus musculus with 4 samples.

Results

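Basement membranes are thin sheets of extracellular matrix. The genes described here are the 10 that encode their main building blocks in the early mouse embryo. They comprise the laminin chains Lama1, Lama5, Lamb1 and Lamc1, the collagen IV chains Col4a1 and Col4a2, the nidogens Nid1 and Nid2, the heparan sulfate proteoglycan perlecan (Hspg2), and Sparc, a secreted collagen-binding protein. They were chosen by name. All 10 were found among the 23697 loci of the deposited table, each as 1 row, and all 10 passed the filter on low values (an average of 1 FPKM or more over the 4 libraries). FPKM is fragments per kilobase of transcript, scaled to all mapped fragments, so levels of different genes can be set side by side.

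The cells were WW6 mouse embryonic stem cells of mixed C57/B6J, 129/Sv and SJL background, grown without feeder cells on gelatin in medium with serum and leukemia inhibitory factor. Control cells were transiently transfected with small interfering RNA against GFP, which the labels call a mock control construct, and knockdown cells were given one that targets Kdm5b, an enzyme that demethylates lysine 4 of histone H3. There were 2 libraries in each group, named A and B, from total RNA depleted of ribosomal RNA. The labels do not say whether A and B were separate cultures, so p-values rest on a spread between libraries that may be technical. Wherever a pair of values is given for a group, the first is that of replicate A and the second that of replicate B.

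A laminin molecule is a trimer of 1 alpha, 1 beta and 1 gamma chain, and laminins with the alpha chains of Lama1 or Lama5 are the main forms of the early embryo. Laminin binds cell surface receptors and forms a first sheet. Collagen IV, a trimer of chains of Col4a1 and Col4a2, forms a second network that is cross-linked, and nidogens and perlecan tie these networks together. Embryonic stem cells make laminin themselves, and primitive and parietal endoderm are known as rich sources of laminin, collagen IV and Sparc.

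The targeted gene was read first as a check of the labels. Kdm5b measured 99.7 and 145 FPKM in the controls against 22.7 and 31.1 FPKM with the knockdown, so both knockdown libraries held less of it than both controls, although its limma adjusted p (0.562, test described below) was not under 0.05. Across the table, knockdown A was the library that stood apart. The steps between its lowest values put it at 76.5% of the depth of control B, and it listed 11953 loci at 0, against 8131 to 8609 in the other 3 libraries. The 9 stem cell markers listed were all tested and none passed the same test. Of them 4 were on the lower and 5 on the higher side (median log2 fold change 0.03), and their summed level was 3540 and 4341 FPKM for control cells, and 4655 and 3912 FPKM after knockdown. That sum is weighted to the most abundant, such as Pou5f1. For 2 of the 9 both knockdown libraries were below both controls, beside 16.9% of all tested loci. Klf4, a transcription factor of the naive stem cell state, measured 46.5 and 55.4 FPKM in the controls against 29.3 and 26.8 FPKM with the knockdown (log2 fold change -0.84, limma p 0.0140 and adjusted p 0.918, rank 47). Esrrb, a nuclear receptor of the same state, had control values of 174 and 137 FPKM and knockdown values of 107 and 121 FPKM (log2 fold change -0.44). Pou5f1 and Zfp42 stood at 0.33 and 0.20 with overlapping groups.

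The collagen IV genes showed the largest differences of the 10. Col4a1 and Col4a2 lie head to head, and their start sites are shown because both genes were lower in both knockdown libraries. In the deposited table (mm9) Col4a1 spans chromosome 8 from 11198422 to 11312826 and Col4a2 follows from 11312828 to 11449287. RefSeq's promoter windows (GRCm38.p6) run from 250 bases before to 50 bases after each start. They are chr8:11312777-11313076 on the minus strand for Col4a1 and chr8:11312555-11312854 on the plus strand for Col4a2, with start sites 21 bases apart. The start site of Col4a2 is 11312805 and that of Col4a1 is 11312826. In this build the transcripts therefore overlap at their first bases, while the mm9 intervals do not overlap. Capitals mark the 78 bases that the windows share, read from opposite strands, 5′ to 3′.
Col4a1: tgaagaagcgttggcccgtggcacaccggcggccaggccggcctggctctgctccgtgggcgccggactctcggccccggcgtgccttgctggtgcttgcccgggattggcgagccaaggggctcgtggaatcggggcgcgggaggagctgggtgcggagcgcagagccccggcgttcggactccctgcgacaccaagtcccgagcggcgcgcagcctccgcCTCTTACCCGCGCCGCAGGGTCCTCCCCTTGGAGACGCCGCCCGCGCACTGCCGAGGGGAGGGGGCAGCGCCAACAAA
Col4a2: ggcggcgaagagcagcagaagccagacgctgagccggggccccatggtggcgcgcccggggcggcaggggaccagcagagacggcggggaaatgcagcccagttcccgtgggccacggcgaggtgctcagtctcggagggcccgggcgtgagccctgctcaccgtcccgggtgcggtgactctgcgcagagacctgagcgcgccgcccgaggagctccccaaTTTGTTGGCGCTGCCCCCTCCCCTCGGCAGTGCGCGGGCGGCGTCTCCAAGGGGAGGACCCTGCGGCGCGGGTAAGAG
The shared stretch is 73.1% G or C. It holds 1 GC box (GGGCGG, on either strand), no CCAAT box (CCAAT) and no TATA box (TATAAA). The whole windows hold 1 and 3 GC boxes and 1 CCAAT box each for Col4a1 and Col4a2, and neither holds a TATA box. Of 32851 RefSeq windows of this length, 35.7% hold a GC box, 37.4% a CCAAT box and 13.6% a TATA box, so GC and CCAAT boxes are common and these matches are a description only.

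Col4a1 (NM_009931), the chain that contributes most to the collagen IV trimer, had control values of 11.1 and 15.7 FPKM and knockdown values of 6.93 and 2.75 FPKM. Both knockdown libraries lay below both controls, at 51.5% and 20.5% of the control mean. The group means were 13.4 ± 3.25 and 4.84 ± 2.95 FPKM (SD, n = 2 each). Its log2 fold change on the log2(FPKM + 1) scale was -1.39 (standard error 0.47, 95% interval -2.52 to -0.25). Without knockdown B it was -0.85, so this library carried much of the size of the difference.

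Col4a2 (NM_009932), the second chain of the same trimer, was listed at 4.39 and 7.47 FPKM for the controls, at 0 in knockdown A and at 0.91 FPKM in knockdown B. The groups did not overlap here either, and knockdown B stood at 15.3% of the control mean. By the depth estimated from the steps, these values stand for about 121 and 201 fragments in the controls and 24.0 in knockdown B. The log2 fold change was -2.29 (standard error 0.60, 95% interval -3.75 to -0.84). It was -1.83 without knockdown A, the library in which the gene is listed at 0, so the difference was present in knockdown B on its own. An exact 0 can be a failed estimate, and of 1843 loci with a control mean from 4 to 8 FPKM, 8.63% were listed at 0 in knockdown A and 0.217% in knockdown B. Among the 694 of these loci with a protein-coding transcript of 3000 bases or more, as Col4a2 has, 2.59% were at 0 in knockdown A and 0% in knockdown B. Col4a2 passed the filter on low values through its controls, since its knockdown values are both under 1 FPKM.

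The ratio of the collagen IV chains could be formed in 3 libraries. Col4a1 stood at 2.53 and 2.11 times the level of Col4a2 in controls A and B and at 3.03 times in knockdown B, per length of transcript. The value of knockdown B rests on the 24.0 fragments of Col4a2 given above and lies above both controls. No ratio can be given for knockdown A, where Col4a1 stood at 6.93 FPKM and Col4a2 is listed at 0.

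**Figure D1:**
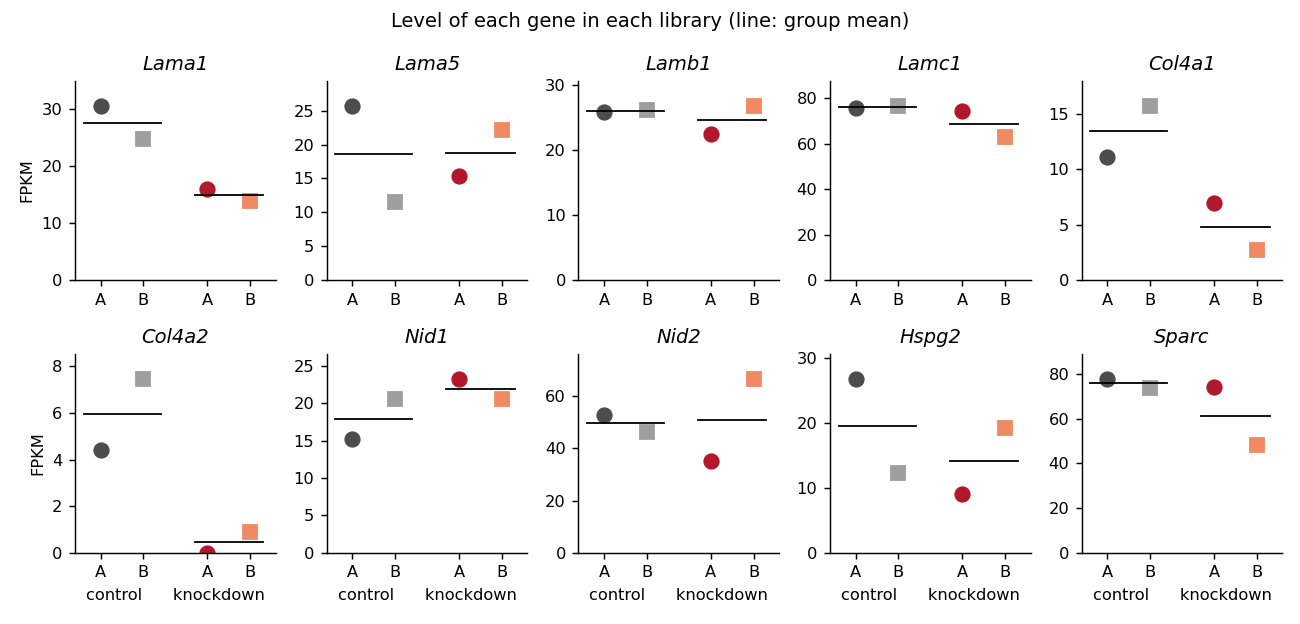
Level of each of the 10 genes (vertical axes, FPKM, from 0) in the 4 libraries. Grey points are control A (circle) and control B (square), red and orange points knockdown A (circle) and knockdown B (square), and lines are group means. Lama1, Col4a1 and Col4a2 are lower in both knockdown libraries, with Col4a2 at 0 and 0.91 FPKM, while Lama5 and Hspg2 vary within groups.

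Differences were tested with limma on log2(FPKM + 1) over all 11784 loci that passed the filter, with Benjamini-Hochberg adjustment over all of them. At an adjusted p under 0.05, 0.0339% of loci were called lower and 0% higher, and none of the 10 members was among them. The smallest limma adjusted p of the 10 was 0.918. At an unadjusted limma p under 0.05 the members lower in knockdown were Col4a2, Lama1 and Col4a1, 3 of 10, beside 1.49% of all tested loci. On the higher side 0 of 10 passed that level, beside 0.967% of loci. Col4a2 ranked 30 by p among the tested loci, Lama1 91 and Col4a1 103. Col4a2 passed the filter on low values through its controls, so its entry leans to the lower side by construction. The members were chosen with earlier results of these data known, so the count of 3 is a description.

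By order alone, both knockdown libraries lay below both controls for 4 of the 10 (Lama1, Lamc1, Col4a1 and Col4a2), beside 16.9% of tested loci. They lay above for 1 (Nid1), beside 15% of tested loci. Leaving out knockdown B put 7 members below the controls, beside 42.3% of loci, and leaving out knockdown A put 5 below, beside 29.5%, and 3 above, beside 29.1%. Without control B the count below was 7, beside 35.6% of loci, and without control A it was 4 below and 2 above, beside 30.4% and 27.1%. The median log2 fold change of the 10 was -0.24, against -0.03 over all tested loci, and it was -0.11 without knockdown A and -0.13 without control A. It was -0.34 without knockdown B and -0.41 without control B.

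**Figure D2:**
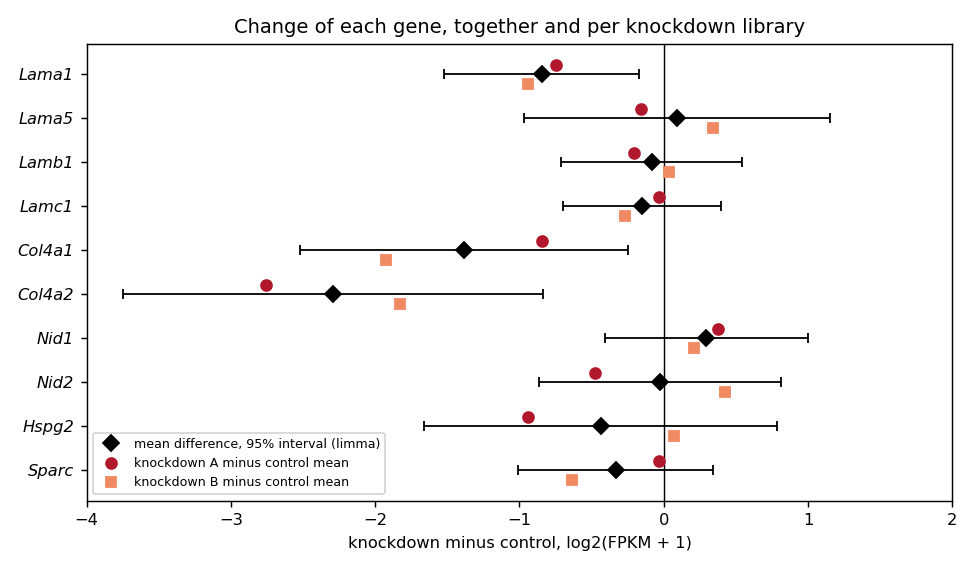
Difference between knockdown and control on the log2(FPKM + 1) scale (horizontal axis) for each gene. Diamonds are the mean difference with limma's 95% interval, and circles and squares are knockdown A and knockdown B minus the control mean. The intervals of Lama1, Col4a1 and Col4a2 lie below 0 before adjustment, and for Lama5, Lamb1, Nid2 and Hspg2 the knockdown libraries fall on opposite sides of 0.

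Of the laminin alpha chains, which carry the main receptor binding domains, only Lama1 had knockdown libraries below both controls. Lama1 (NM_008480; mm9 chromosome 17, 68046604 to 68171985) reached 30.5 and 24.7 FPKM in the control libraries, compared with 15.9 and 13.8 FPKM after knockdown. The libraries of each group were close to each other and the groups were well apart, at 27.6 ± 4.14 and 14.9 ± 1.503 FPKM (SD, n = 2 each). The log2 fold change was -0.85 (standard error 0.28, 95% interval -1.52 to -0.17), and with any 1 library left out it ranged from -0.99 to -0.70.

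Lama5 (NM_001081171; mm9 chromosome 2, 179911077 to 179960564), an alpha chain found in many later basement membranes, measured 25.7 and 11.5 FPKM in the controls against 15.4 and 22.1 FPKM with the knockdown. Here the controls enclosed both knockdown libraries. The log2 fold change of 0.09 had a 95% interval of -0.97 to 1.15, which includes a 2-fold difference on the higher side. Without control A it was 0.64 and without control B -0.46, so its direction rests on which control is used. Lama1 stood at 1.19 and 2.15 times the level of Lama5 in controls A and B and at 1.03 and 0.62 times in knockdown A and B. The ratio was thus lower in both knockdown libraries, and with 2 libraries a group no exact permutation test can give a p under 0.333.

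Lamb1 (NM_008482; mm9 chromosome 12, 31950158 to 32014504), the beta chain that pairs with either alpha chain, was among the steadiest of the 10. It had control values of 25.9 and 26.1 FPKM and knockdown values of 22.4 and 26.8 FPKM. The groups overlapped, with a log2 fold change of -0.08 (95% interval -0.71 to 0.54).

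Lamc1 (NM_010683; mm9 chromosome 1, 155066051 to 155179916), the gamma chain that also holds the nidogen binding site, was abundant throughout, with control values of 75.6 and 76.6 FPKM and knockdown values of 74.5 and 63.0 FPKM. Both knockdown libraries were below both controls, but knockdown A lay only just below. The means were 76.1 ± 0.72 and 68.7 ± 8.14 FPKM (SD, n = 2 each), so the gap between groups was smaller than the spread between the knockdown libraries. The log2 fold change was -0.15 (95% interval -0.70 to 0.40), and without knockdown B it was -0.03.

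Per length, gamma chain RNA was in excess of beta chain RNA in every library. Lamc1 stood at 2.92 and 2.93 times the level of Lamb1 in controls A and B and at 3.33 and 2.35 times in knockdown A and B. The sum of Lama1 and Lama5 was 56.2 and 36.2 FPKM for the controls, against 31.3 and 35.9 FPKM after knockdown. Both knockdown sums were below both control sums, though control B and knockdown B differed little. Within this sum, Lama1 was the larger part in both controls and in knockdown A, and Lama5 in knockdown B.

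**Figure D3:**
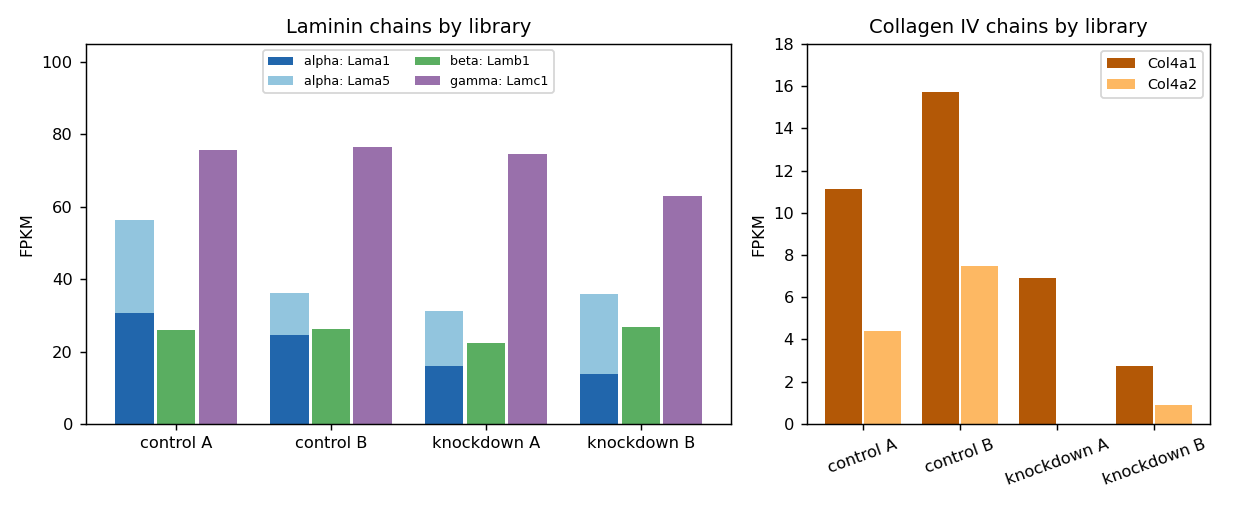
Levels of the laminin chains (left, the alpha chains stacked) and of the collagen IV chains (right) in each library, in FPKM from 0; each bar is 1 library, with no error. Lamc1 stands above Lamb1 in all 4 libraries, the Lama1 part of the alpha bar is lower in both knockdown libraries, and Col4a2 has no bar in knockdown A because it is listed at 0.

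The linker proteins gave no difference that was shared by both knockdown libraries and clear of the controls. Nid1 (NM_010917; mm9 chromosome 13, 13529868 to 13604542), which bridges laminin and collagen IV, reached 15.2 and 20.6 FPKM in the control libraries, compared with 23.3 and 20.6 FPKM after knockdown. It is counted above both controls, but knockdown B at 20.63 FPKM and control B at 20.59 FPKM are nearly equal. Its log2 fold change was 0.29 (95% interval -0.41 to 1.00), and without control A it was 0.09.

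Nid2 (NM_008695; mm9 chromosome 14, 20570478 to 20643045), the second nidogen, was higher than Nid1 in every library. It measured 52.9 and 46.4 FPKM in the controls against 35.4 and 66.8 FPKM with the knockdown, so the knockdown libraries lay on either side of the controls. The log2 fold change of -0.03 (95% interval -0.87 to 0.82) became -0.48 without knockdown B and 0.42 without knockdown A. The Nid2 locus shares its interval with Rtraf, and fragments of the overlapping part cannot be assigned here. The Lama5 and Hspg2 intervals each hold a microRNA locus (Mir7005 and Mir7018). Nid2 stood at 3.48 and 2.25 times the level of Nid1 in controls A and B and at 1.52 and 3.24 times in knockdown A and B.

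Perlecan, the proteoglycan that holds growth factors and binds laminin and nidogen, was, with Lama5, the member that differed most between the controls. Hspg2 (NM_008305; mm9 chromosome 4, 137024717 to 137126545) had control values of 26.8 and 12.3 FPKM and knockdown values of 9.02 and 19.2 FPKM. Control A and knockdown B were high and control B and knockdown A low, the same high and low libraries as for Lama5. The log2 fold change was -0.44 (95% interval -1.66 to 0.79), and it was -0.94 without knockdown B but 0.07 without knockdown A, and -0.97 without control B but 0.10 without control A. Between the controls, Hspg2 differed 2.19-fold and Lama5 2.24-fold, while Lamb1 and Lamc1 differed 1.01-fold each. Hspg2 and Lama5 have the longest transcripts of the 10, at 14176 and 11388 bases, with 60.9% and 59.9% G or C. The transcript of Col4a2 is as rich in G and C, at 60.6% of 6450 bases, and those of the others range from 50.4% (Nid1) to 57.7% (Col4a1). The part of length or base composition in these values was not tested.

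Sparc (NM_009242; mm9 chromosome 11, 55208002 to 55233582), which binds collagen IV, reached 77.9 and 73.9 FPKM in the control libraries, compared with 74.3 and 48.4 FPKM after knockdown. Knockdown A lay between the controls and knockdown B below them. The log2 fold change was -0.33 (95% interval -1.01 to 0.34), and it was -0.03 without knockdown B. After upper-quartile scaling or quantile normalization both knockdown libraries of Sparc lay below both controls, so its order depends on the scaling.

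Within the 10 genes, Lamc1 and Sparc were the most abundant in controls, each with 21.8% to 24.3% of the summed FPKM of the 10. The sum itself came to 346 and 315 FPKM for the controls, against 277 and 284 FPKM after knockdown. Col4a1 and Col4a2 were the least abundant, so they carried little of that sum: Col4a1 held 3.22% and 4.99% of it in controls and 2.499% and 0.967% in knockdown A and B. In the controls the order of mean levels was Lamc1, Sparc, Nid2, Lama1, Lamb1, Hspg2, Lama5, Nid1, Col4a1 and Col4a2. Neighbours in this order overlapped in their control values for Lamc1 and Sparc, for Lama1 and Lamb1, and along the run of Lamb1, Hspg2, Lama5, Nid1 and Col4a1. Nid2 and Col4a2 overlapped with no neighbour. The level of Lamc1 was 6.79 and 4.87 times that of Col4a1 in controls and 10.8 and 22.9 times in knockdown A and B. Laminin gamma chain and collagen IV RNA therefore stood farther apart in both knockdown libraries, a difference that 2 libraries a group cannot test below a p of 0.333.

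Promoter windows were found for 7 of the 10 (Lama5, Lamb1, Col4a1, Col4a2, Nid1, Hspg2 and Sparc). They held 55.3% (Sparc) to 74% (Col4a1) G or C, against a median of 52.7% over all windows. GC boxes were found in all of these but Sparc, with 5 for Hspg2 and 4 for Lama5, and a TATA box in none of the 7.

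Other basement membrane genes were then read as context. Of 25 listed, 9 were tested, 16 averaged under 1 FPKM, and Col4a3 and Col4a4, chains of a collagen IV of mature organs, were listed at 0 in all 4 libraries. None of the 9 passed the limma test, 4 were on the lower and 5 on the higher side, and their median log2 fold change was 0.06. Col18a1, the core protein of a further proteoglycan, measured 96.1 and 68.7 FPKM in the controls against 77.5 and 109 FPKM with the knockdown, and is the most abundant of these. Agrn, the proteoglycan agrin, had control values of 25.9 and 14.9 FPKM and knockdown values of 15.997 and 19.7 FPKM. Like Lama5 and Hspg2, Agrn was highest in control A and next highest in knockdown B. Lamb2, the beta chain that can replace that of Lamb1, reached 7.92 and 6.66 FPKM in the control libraries, compared with 4.12 and 6.11 FPKM after knockdown, below both controls in each (log2 fold change -0.45, standard error 0.38). The largest differences were those of Fbln1 (-1.14), Lamb3 (0.71) and Smoc1 (0.50). Of these Fbln1 was low in knockdown A alone, at 0.10 FPKM against 3.58 to 4.69 FPKM in the other libraries. Lamb3 (standard error 0.67) had overlapping groups, with control values of 1.54 and 0.30 FPKM and knockdown values of 2.85 and 1.29 FPKM. Its control mean was 0.92 FPKM, so it passed the filter only through the knockdown. Its entry on the higher side therefore leans that way by construction.

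Receptors for laminin and collagen were measured beside their ligands. Of 17 listed, 14 were tested and none passed the limma test, with 8 on the lower and 6 on the higher side and a median of -0.05. Itgb1, the beta subunit shared by most matrix-binding integrins, measured 55.9 and 66.1 FPKM in the controls against 69.2 and 65.0 FPKM with the knockdown. Its partner Itga6, the main laminin-binding alpha subunit of embryonic stem cells, had control values of 33.1 and 52.9 FPKM and knockdown values of 39.3 and 31.7 FPKM. Dag1, the precursor of dystroglycan, which binds laminin and perlecan, reached 26.0 and 20.9 FPKM in the control libraries, compared with 14.4 and 26.2 FPKM after knockdown. For all of these the groups overlapped. Itga3, another laminin-binding alpha subunit, measured 7.73 and 6.97 FPKM in the controls against 1.75 and 5.00 FPKM with the knockdown (log2 fold change -1.04, standard error 0.50), below both controls in each. It was -0.47 without knockdown A and -1.60 without knockdown B. Sdc1, a cell surface proteoglycan, was above both controls in each knockdown library, with a log2 fold change of 0.44 (standard error 0.33). Itgb4 and Itgb3 stood at -0.69 and 0.33, and both overlapped with the controls. Itgb4 was listed at 0 in knockdown A. Itgb3 averaged 0.78 FPKM in the controls and passed the filter only through the knockdown.

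Of 19 enzymes and chaperones that modify, fold or cross-link collagen, 11 were tested and none passed the limma test, with 7 on the lower and 4 on the higher side and a median of -0.06. Serpinh1, the chaperone that binds folded procollagen in the endoplasmic reticulum, had control values of 35.6 and 32.0 FPKM and knockdown values of 26.2 and 13.9 FPKM. As for Col4a1, both knockdown libraries were below both controls and knockdown B was the lower. Its log2 fold change was -0.79 (standard error 0.35), and -0.35 without knockdown B. Colgalt1, which adds galactose to collagen, was also below both controls in each knockdown library, at -0.24. These were 2 of the 11 tested, beside 16.9% of all tested loci, and 0 of the 11 lay above both controls, beside 15%. The other differences of size were those of the prolyl hydroxylase subunit P4ha2 (-0.55), the cross-linking oxidase Loxl2 (-0.35) and peroxidasin (Pxdn, -0.25), which cross-links collagen IV. For these 3 genes the groups overlapped.

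Of 16 matrix proteases and inhibitors, 10 were tested, 5 on each side, with a median of 0.02, and none passed the limma test. Mmp11, a matrix metalloproteinase, reached 22.9 and 24.3 FPKM in the control libraries, compared with 12.1 and 11.5 FPKM after knockdown. The libraries of each group lay close together and the groups apart (log2 fold change -0.94, standard error 0.27). The serine protease inhibitor Serpine2 measured 7.44 and 4.99 FPKM in the controls against 20.5 and 13.2 FPKM with the knockdown (log2 fold change 1.297, standard error 0.37). Bmp1, which trims procollagen ends, stood at -0.94 (standard error 0.76) with overlapping groups. It was at 3.18 and 1.06 FPKM in the controls, was listed at 0 in knockdown A and was at 1.32 FPKM in knockdown B. With a knockdown mean of 0.66 FPKM, it passed the filter only through the controls.

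Of 12 genes of interstitial matrix and mesenchyme, 5 were tested and none passed the limma test. Of these, 1 was on the lower and 4 on the higher side. Their median was 0.28, which turned to -0.11 without control B. Eln, Col5a1 and Fbn1 averaged under 1 FPKM in the controls (0.67, 0.85 and 0.997 FPKM) and passed the filter only through the knockdown. The count on the higher side and the median therefore lean that way by construction. Fibronectin (Fn1) had control values of 125 and 63.9 FPKM and knockdown values of 44.2 and 93.4 FPKM. Control A and knockdown B were again the high libraries, as for Hspg2 and Lama5. Vim, Eln and Col5a1 stood at 0.32, 0.31 and 0.28 (standard errors 0.35, 0.87 and 0.65), with overlapping groups. Eln was highest in knockdown A (2.70 FPKM) and lowest in knockdown B (0.066 FPKM), with control values of 1.14 and 0.19 FPKM.

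Markers of endoderm, which makes these proteins in quantity, were mostly low and differed in which libraries held them. Of 16 markers of primitive, parietal and visceral endoderm, 7 were tested and none passed the limma test. All 7 had a log2 fold change below 0 (median -0.81), and 5 of them (Gata4, Dab2, Cubn, Cited1 and Foxq1) had both knockdown libraries below both controls, beside 16.9% of tested loci. Gata4, Dab2, Cubn and Cited1 averaged under 1 FPKM with the knockdown and passed the filter only through the controls, so these counts and the median lean to the lower side by construction. Foxq1 in knockdown A (1.97 FPKM) was close to the controls (2.08 and 2.13 FPKM), and only knockdown B (0.27 FPKM) was well below them. The summed level of the 16 was 18.7 and 24.5 FPKM for the controls, against 6.22 and 6.40 FPKM after knockdown. In knockdown A 11 of the 16 were listed at 0 and in knockdown B 4, against 2 in each control. Knockdown A also listed the most zeros over the whole table, 11953 of 23697 loci, against 8131 to 8609 in the others. Ttr was listed at 0 in all libraries, and Afp lay under 0.13 FPKM in each. Cubn, an endocytic receptor of visceral endoderm, had the widest gap of the 7 tested, with control values of 4.23 and 7.39 FPKM and knockdown values of 0.27 and 0.34 FPKM. Gata6, a defining transcription factor of this lineage, reached 1.81 and 2.09 FPKM in the control libraries, compared with 2.32 and 0.08 FPKM after knockdown. It was thus low in knockdown B alone and highest in knockdown A. The Gata6 locus shares its interval with Gata6os, and fragments of the overlapping part cannot be assigned here. Pth1r, a parathyroid hormone receptor made by parietal endoderm, measured 1.79 and 1.24 FPKM in the controls. It was listed at 0 in knockdown A and was highest in knockdown B, at 2.21 FPKM. Part of this list was known to be lower in these libraries when the genes were chosen, so its count is no independent support. Its part in the values of Col4a1, Col4a2 and Lama1 was not tested, and in bulk RNA fewer cells of a type and less RNA per cell cannot be told apart.

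The 10 members are set beside these markers as percentages of their control means. Lamb1, Lamc1, Nid1 and Sparc stood at 86.0%, 97.9%, 130% and 97.9% in knockdown A, and at 103%, 82.7%, 115% and 63.7% in knockdown B. Col4a1, Col4a2 and Lama1 stood at 51.5%, 0% and 57.7% in knockdown A, and at 20.5%, 15.3% and 50.0% in knockdown B. Lama5, Nid2 and Hspg2 stood at 82.8%, 71.2% and 46.1% in knockdown A, and at 119%, 135% and 98.0% in knockdown B. The part of endoderm cells in these values was not tested. Of 9 fibroblast markers 3 were tested (median -1.19) and none passed the limma test. Acta2 and Thy1 were below both controls in each knockdown library, at log2 fold changes of -1.48 and -1.19, and Pdgfrb was above both, at 0.73. Acta2 in knockdown B (1.09 FPKM) was close to control B (1.17 FPKM), and its log2 fold change was -0.59 without control A. Pdgfrb in knockdown B (0.812 FPKM) was close to control B (0.800 FPKM), and its log2 fold change was 0.053 without knockdown A. Acta2 and Thy1 passed the filter only through the controls and Pdgfrb only through the knockdown. The summed level of the 9 was 10.1 and 3.72 FPKM for the controls, against 3.91 and 2.66 FPKM after knockdown, of which Acta2 gave 6.48 FPKM in control A. The defining fibroblast collagens Col1a1, Col1a2 and Col3a1 were at 0.38 FPKM or below in every library, and Lum was listed at 0 in all. Of 4 endothelial markers, Pecam1 and Tek were tested, with log2 fold changes of 0.31 and 0.30 and overlapping groups. The summed level of the 4 was 46.4 and 26.7 FPKM for the controls, against 41.0 and 47.3 FPKM after knockdown. Nearly all of that sum was Pecam1, at 42.7 and 24.7 FPKM in the controls and 37.6 and 43.9 FPKM with the knockdown. Cdh5 and Kdr were at 0.78 FPKM or below in every library.

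**Figure D4:**
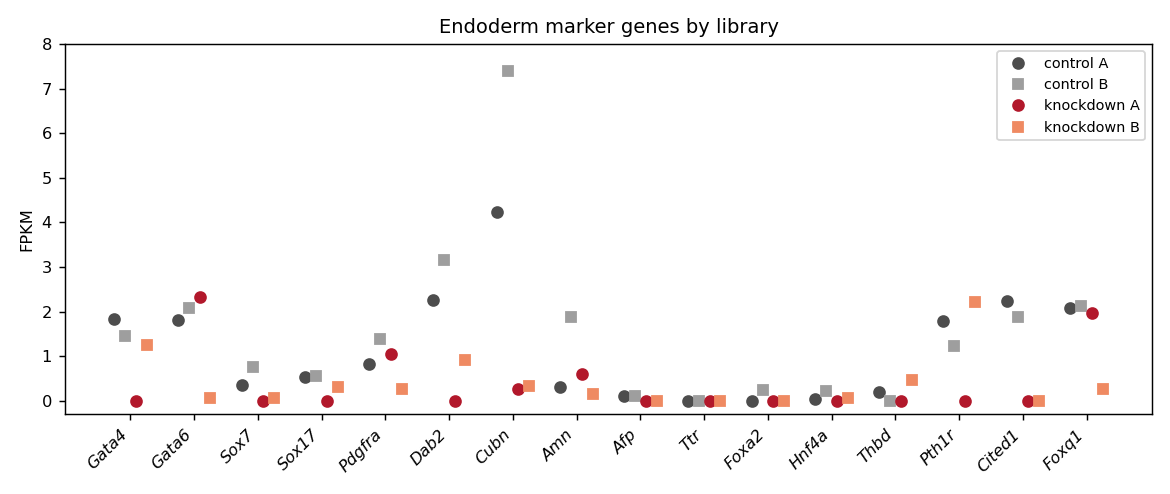
Levels of 16 endoderm marker genes (vertical axis, FPKM) in the 4 libraries; grey points are controls A and B, red and orange points knockdown A and B. Cubn, Dab2 and Cited1 are lower in both knockdown libraries, Gata4 is at 0 in knockdown A and near the controls in knockdown B, and Gata6 is low in knockdown B alone.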

How the data were processed

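RNA of 4 libraries (2 control, 2 knockdown) was read from 1 table. The authors deposited 1 FPKM value per locus and library. The submitters' processing notes name Cufflinks, Cuffdiff and the mm9 build. Tool versions, the aligner and whether strand entered the counts are not stated there or in other sources used here. Overlapping genes may therefore share fragments. Coordinates are those of the deposited table.

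Gene symbols were matched to the RefSeq identifiers through a GRCm38.p6 table, used for names only (23241 loci with 1 symbol, 189 with several, 267 with none). Promoter windows are RefSeq's. Transcript length and base composition are those of GENCODE M21 transcripts. FPKM carries no totals. The depth was estimated from the steps of low values, of which 78.8% to 81.7% were whole numbers of fragments to within 0.15. No interval was made from it.

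Loci averaging 1 FPKM or more over the libraries entered limma 3.58.1 as log2(FPKM + 1), a scale that makes changes of low genes look smaller (group as the one term, eBayes with trend, two-sided, R 4.3.3), and the fit was tested on simulated data. Tables were made with pandas 2.3.3 and numpy 2.4.6 in Python 3.11.15, and figures with matplotlib 3.10.9. The members, the lists and the tests were chosen with earlier results of these data known. Named were the 10 members, Kdm5b, up to 4 tested genes of each other list with the largest absolute log2 fold change, and Itga6, Itgb1, Dag1, Agrn and Col18a1. One gene that this rule names is not reported here. Colgalt1, Fbn1, Foxq1, Gata6, Pth1r and other markers were named after their values were seen. Alternatives were pseudocounts of 0.1 and 0.01, no filter (every locus above 0 in some library), a filter at 5 FPKM, quantile normalization, upper-quartile scaling, eBayes without trend, the replicate letter as a block and each library left out.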

Additional observations from a re-analysis of the deposited data

How the results depend on the processing

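No member passed the limma test under any alternative run. The closest was Col4a2 without knockdown B (adjusted p = 0.0583), where 119 loci were called lower and 15 higher. Over the alternatives with all libraries, the log2 fold change of Lama1 lay between -0.89 and -0.83, of Col4a1 between -1.60 and -1.33, and of Col4a2 between -5.91 (pseudocount of 0.01) and -1.96 (quantile normalization). Col4a2 has no value with a filter at 5 FPKM, and summing the rows of a symbol was not run because each member has 1 row. With 1 library left out, they ranged from -0.99 to -0.70, from -1.93 to -0.85 and from -2.76 to -1.83.

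The count of loci called lower, 4 with all libraries, was 1 with no filter, 2 when eBayes had no trend and 7 under the replicate block, and ranged from 0 to 119 with 1 library left out. The count called higher, 0 with all libraries (limma, 114 at an unadjusted p under 0.05), ranged from 0 to 15. The cause was not tested. Same-letter libraries did not deviate together over the tested loci (correlation of deviations -0.07). With 1 difference between A and B in each group, this cannot show whether the letters mark paired cultures or batches. The block changed no call of a member. Quantile normalization left 0 members above both controls, because Nid1 no longer was. With 1 library left out, a choice added after seeing the data, 4 to 7 members lay below and 1 to 3 above the controls. The shares of all tested loci were then 29.5% to 42.3% below and 27.1% to 36.8% above.

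The endoderm median was -2.24 and -3.87 with pseudocounts of 0.1 and 0.01 and -0.38 with quantile normalization, and the fibroblast median -2.49, -2.86 and -0.52. With the filter at 5 FPKM the medians of proteases (-0.14), other basement membrane genes (-0.14) and interstitial matrix (-0.073) turned below 0, and no endoderm or fibroblast marker was left. The receptor median turned to 0.060 with quantile normalization. Medians with 1 library left out ranged from -0.41 to -0.11 for the 10 members, -0.36 to 0.24 for other basement membrane genes, -0.17 to 0.074 for receptors, -0.11 to 0.45 for interstitial matrix, -0.22 to 0.13 for collagen enzymes, -0.082 to 0.19 for proteases, -0.19 to 0.14 for stem cell markers, -1.40 to -0.71 for endoderm and -1.29 to -0.59 for fibroblast markers.

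Eln turned to -0.095 with a pseudocount of 0.01. With 1 library left out the direction turned for Lama5 (-0.46 to 0.64), Lamb1 (-0.21 to 0.040), Nid2 (-0.48 to 0.42), Hspg2 (-0.97 to 0.10), Agrn (-0.52 to 0.23), Col18a1 (-0.068 to 0.42), Dag1 (-0.66 to 0.16), Itga6 (-0.57 to 0.088), Itgb3 (-0.051 to 0.70), Itgb4 (-1.64 to 0.27), Loxl2 (-1.06 to 0.37), Pxdn (-0.54 to 0.031), Fn1 (-1.0004 to 0.061), Vim (-0.057 to 0.71), Eln (-0.58 to 1.21), Pecam1 (-0.069 to 0.70) and Zfp42 (-0.045 to 0.44). Without 1 library a group has 1 sample, which is assumed to vary like the other group.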
